A study of Mus musculus with 19 samples.

Results

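The ephrin ligands are the 8 mouse genes Efna1, Efna2, Efna3, Efna4, Efna5, Efnb1, Efnb2 and Efnb3. They were taken by the Ensembl identifiers that the GENCODE M21 annotation of GRCm38 gives these symbols, and all 8 were found among the 47069 genes of the RNA-seq count tables. The study compared retinal ganglion cells (RGCs) whose axons stay on the same side of the brain (ipsilateral, iRGCs) with those whose axons cross the midline (contralateral, cRGCs). Its embryos, taken at the embryonic stage E16.5, were labelled as of strain C57/DBA F1 and genotype WT, with both sexes pooled. All carried the reporter Sun1-GFP, a nuclear envelope protein fused to GFP that is made after Cre recombinase removes a stop cassette, and in the descendants of such cells. The iRGCs were GFP+ cells sorted from retinas with Slc6a4-Cre, in which the gene of the serotonin transporter drives Cre, and the cRGCs were GFP+ cells sorted from retinas with Pou4f2-Cre, inserted at the locus of the RGC transcription factor Pou4f2 (Brn3b), after the ventrotemporal (VT) region had been cut away. Pou4f2-Cre marks most RGCs and not cRGCs alone, so the second group is defined by dissection as well as by its driver, and driver and retinal region cannot be told apart from the axon's side. RNA was sequenced in 3 libraries per population, with 28193178 to 33638083 reads counted on genes. The sources used here do not say which embryos went into which library, so p-values measure the spread between these libraries.

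Ephrins are ligands held on the cell surface, and their receptors, the Eph proteins, are receptor tyrosine kinases. Class A ephrins are anchored to the membrane by a lipid and mainly bind EphA receptors, whereas class B ephrins span the membrane and mainly bind EphB receptors, with some exchange between the classes. Contact starts signals in both directions, called forward in the cell with the receptor and reverse in the cell with the ligand. In the visual system, gradients of ephrins and Ephs across the retina and its targets order the projection map, and ephrin-B2 on glia at the optic chiasm repels the EphB1-bearing axons of iRGCs. The values given here are of transcripts in the sorted cells, not of ephrin-B2 at the chiasm.

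The labelled cell type was checked before the ephrins were compared. Levels are in CPM, counts scaled to the size of each library after TMM normalisation. Of 14 RGC markers, 13 were lower in iRGCs and Thy1 was not called, at an adjusted p under 0.1 in edgeR's quasi-likelihood test. Their geometric mean (of CPM plus 0.5) was 143, 176 and 279 in iRGC replicates 1 to 3 and 790, 695 and 690 in the cRGC replicates. These markers summed to 2760.3, 3852 and 5893 CPM in the iRGC libraries and to 15567, 13928 and 17093 CPM in the cRGC libraries, with Nefm the most abundant. Pou4f2 read 74.7, 133 and 98.3 CPM in iRGCs and 191, 196 and 293 CPM in cRGCs. Every iRGC library thus lay below every cRGC library in the sum and geometric mean of RGC markers. The markers themselves were present in all 6. Thy1 overlapped between the populations, at 6.18, 1.33 and 13.8 CPM in iRGCs and 46.5, 39.1 and 3.19 CPM in cRGCs.

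Slc6a4, whose Cre marked the iRGCs, read 2.06, 33.4 and 116 CPM in iRGCs and 48.1, 35.4 and 30.5 CPM in cRGCs. Replicate 1 of the iRGCs lay below all 3 cRGC libraries, and only replicate 3 lay above them. Its log2 fold change of iRGCs over cRGCs was 0.41 with an SE of 0.929 and an edgeR adjusted p of 0.768, and it was -1.11 without iRGC replicate 3. Of the 5 markers of iRGCs, Zic2, Zic1 and Boc were higher in iRGCs, and Slc6a4 and Ephb1 were not called. Ephb1 pointed the other way, with a log2 fold change of -0.26 and an edgeR adjusted p of 0.499. Zic2, the transcription factor of the ipsilateral programme, read 133, 173 and 157 CPM in iRGCs and 57.0, 60.2 and 65.7 CPM in cRGCs.

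Other cell types differed between the populations as well. Of 16 retinal progenitor markers, 14 were higher in iRGCs and Six3 was lower. Their geometric mean was 320, 310 and 267 in iRGCs and 49.5, 102 and 72.8 in cRGCs, with Ccnd1 the most abundant. All 7 tested endothelial markers were higher in iRGCs, while 46.4% of all tested genes were called. The rest of the 14 genes on that list did not pass the filter on low counts. Cd34 (685, 2431 and 16 counts in iRGCs, 12, 4 and 6 in cRGCs) passed mainly through the iRGC libraries. For such genes the filter favours calls as higher. The 14 genes summed to 456, 702 and 435 CPM in iRGCs and to 88.2, 109 and 72.4 CPM in cRGCs. Kdr read 366, 320 and 418 CPM in iRGCs and 83.7, 103 and 67.6 CPM in cRGCs. It was the most abundant and made up much of these sums, which therefore do not measure vessel cells. Cdh5, a cadherin of the vessel wall, read 15.2, 81.3 and 0.158 CPM in iRGCs and 0 in all cRGC libraries. Vessel markers other than Kdr and Cldn5 were thus highest in iRGC replicate 2, and they were at 2.68 CPM or lower in replicate 3. Because of these differences, values without iRGC replicate 1 or 2 are given for each ephrin whose call they change. In bulk libraries, fewer cells of a type and less RNA per cell cannot be told apart.

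All 8 ephrins passed the filter on low counts. Of these, Efna1, Efnb1 and Efnb2 were higher in iRGCs, Efna2, Efna3 and Efnb3 were lower, and Efna4 and Efna5 were not called, all with TMM scaling. Of the 15941 genes tested, 46.4% were called, 23.3% as higher and 23.1% as lower, so calls were common in this comparison. The median log2 fold change of the 8 ephrins was 0.13, against -0.0031 over all tested genes. The libraries of the populations did not overlap for 6 of the 8 ephrins, and for 55.3% of all tested genes. There were 5 ephrins called without iRGC replicate 1 and 4 without iRGC replicate 2.

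Promoters are shown for Efnb2 and Efnb1, the class B ephrins that rose, and for Efna3, the ephrin that fell most. Each is the 250 bases before a RefSeq start site in GRCm38.p6, 5′ to 3′ on the gene's strand. Efnb2 is at chr8:8661243-8661492 on the minus strand, Efnb1 at chrX:99135811-99136060 on the plus strand and Efna3 at chr3:89322940-89323189 on the minus strand. Capitals mark matches, on either strand, to the letters CAGCAGG (Zic), TGGGAA (Rbpj, the Notch pathway factor) or TAATTA (homeodomain core), none of which overlapped another here. Efna3 has another start in the table that is not shown.
Efnb2: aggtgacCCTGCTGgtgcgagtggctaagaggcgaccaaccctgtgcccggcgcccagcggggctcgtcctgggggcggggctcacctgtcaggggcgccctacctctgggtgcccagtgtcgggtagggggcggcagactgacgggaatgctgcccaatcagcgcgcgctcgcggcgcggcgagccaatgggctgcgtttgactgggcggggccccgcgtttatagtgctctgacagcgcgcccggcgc
Efnb1: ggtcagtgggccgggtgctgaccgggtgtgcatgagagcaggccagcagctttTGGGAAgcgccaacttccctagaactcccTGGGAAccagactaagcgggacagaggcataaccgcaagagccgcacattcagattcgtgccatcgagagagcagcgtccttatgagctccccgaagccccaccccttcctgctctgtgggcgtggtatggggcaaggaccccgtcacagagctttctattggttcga
Efna3: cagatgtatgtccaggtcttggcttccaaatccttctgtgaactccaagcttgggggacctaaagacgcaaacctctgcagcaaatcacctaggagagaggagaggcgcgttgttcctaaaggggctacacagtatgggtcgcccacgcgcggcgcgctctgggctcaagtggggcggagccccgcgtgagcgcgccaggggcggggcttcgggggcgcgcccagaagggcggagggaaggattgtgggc
The Efnb2 window held 1 match to the Zic letters, found in 8.44% of 32851 promoters of this length, and the Efnb1 window held 2 matches to the Rbpj letters, found in 21.6%. The Efna3 window shown held none of the 3 sets of letters. Of the 9 windows found for 7 ephrins, the other match was 1 to the homeodomain core, found in 4.84% of promoters, before the upstream start of Efna1. GC made up 72.0% of the Efnb2 window, 60.0% of the Efnb1 window and 63.6% of the Efna3 window, against a median of 52.4%. These matches describe letters and are not sites of binding.

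Among class B ephrins, Efnb2 (chr8:8617434-8661242, minus strand) had the largest difference between the populations. This gene encodes ephrin-B2, the chiasm's repellent ligand. It read 233, 287 and 217 CPM in iRGCs and 91.0, 105 and 124 CPM in cRGCs. The lowest iRGC library was above the highest cRGC library. Efnb2 was 2.30-fold higher in iRGCs, a log2 fold change of 1.20 with an SE of 0.152 and an edgeR adjusted p of 0.000441. Without each library in turn, the log2 fold change was 1.08 to 1.34, and the call held.

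Efnb1 (chrX:99136130-99148991, plus strand) encodes ephrin-B1, which is known for boundaries between groups of cells. It read 39.9, 34.9 and 36.8 CPM in iRGCs and 23.0, 25.6 and 24.3 CPM in cRGCs. The libraries within each population lay close together and the populations did not overlap. The log2 fold change was 0.62 with an SE of 0.140 and an edgeR adjusted p of 0.00736, a fold of 1.53. With each library left out, it was 0.56 to 0.67, and the call held.

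Efnb3 (chr11:69554092-69560205, minus strand) went the other way. It encodes ephrin-B3, known as a midline barrier to axons of the spinal cord. It read 65.3, 67.9 and 81.6 CPM in iRGCs and 108, 94.7 and 98.3 CPM in cRGCs. All iRGC libraries were below all cRGC libraries, and the level was 1.40-fold lower. The log2 fold change was -0.49 with an SE of 0.124 and an edgeR adjusted p of 0.0131, and it was -0.60 to -0.43 with each library left out, with the call kept. Class B ephrins therefore did not share a direction, with Efnb1 and Efnb2 higher in iRGCs and Efnb3 lower.

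In class A, Efna3 (chr3:89313899-89322965, minus strand) fell most. It read 4.31, 5.01 and 10.8 CPM in iRGCs and 34.0, 32.2 and 21.7 CPM in cRGCs. Replicate 3 lay nearest the other population in both groups, without overlap. Efna3 was 4.36-fold lower in iRGCs, with a log2 fold change of -2.12, an SE of 0.366 and an edgeR adjusted p of 0.00184. Left-out libraries gave -2.66 to -1.89, and the call held. An antisense gene, Gm15998, shares 14.1% of Efna3's exonic bases, and it was at 0 in all iRGC libraries, with a mean of 0.118 CPM in cRGCs. Whether counting used strand is not given in the sources used here, so reads of the shared part may belong to either gene.

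Efna2 (chr10:80179482-80190010, plus strand) encodes ephrin-A2, a ligand of retinotopic mapping. It read 44.5, 34.3 and 49.8 CPM in iRGCs and 53.7, 54.3 and 57.8 CPM in cRGCs. The populations did not overlap, but the highest iRGC library and the lowest cRGC library were close. The log2 fold change was -0.37 with an SE of 0.154, and the edgeR adjusted p of 0.0926 was just under the threshold. The call was lost without each library in turn, other than iRGC replicate 3. Without iRGC replicate 1 the log2 fold change was -0.39 and the edgeR adjusted p 0.125, and without iRGC replicate 2 they were -0.23 and 0.261.

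Efna1 (chr3:89271733-89281142, minus strand) encodes ephrin-A1, known from blood vessels. It read 2.19, 10.2 and 1.61 CPM in iRGCs and 0.0384, 0.414 and 0.645 CPM in cRGCs, from 68, 331 and 51 counts and from 1, 12 and 20 counts. Replicate 2 of the iRGCs, in which vessel markers were highest, held most of these reads. The log2 fold change was 3.65 with an SE of 1.06 and an edgeR adjusted p of 0.0238. Without iRGC replicate 2 it was 2.35 with an SE of 1.23, and the call was lost with an edgeR adjusted p of 0.189. Without cRGC replicate 3 it was 4.33 and the call held. It was also lost with limma voom, at an adjusted p of 0.120. In iRGC replicate 3, Efna1 read 1.61 CPM, Cdh5 0.158 CPM and Pecam1 0.284 CPM, while Kdr, at 418 CPM, and Cldn5, at 11.8 CPM, were above all cRGC libraries there. The part of vessel cells in the Efna1 difference was not tested.

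The remaining class A ephrins were not called. Efna4 (chr3:89333390-89338028, minus strand) read 13.4, 9.49 and 11.6 CPM in iRGCs and 10.0, 11.7 and 10.9 CPM in cRGCs, and the populations overlapped. Its log2 fold change of 0.083 had an SE of 0.230 and an edgeR adjusted p of 0.814, and it was -0.042 without iRGC replicate 1. An antisense gene, 4731419I09Rik, shares 10.5% of its exonic bases. Efna5 (chr17:62604184-62881317, minus strand), which encodes ephrin-A5, the other main ligand of retinotopic mapping, read 85.2, 82.6 and 60.7 CPM in iRGCs and 59.9, 72.0 and 69.4 CPM in cRGCs. Replicates 1 and 2 of the iRGCs were above all cRGC libraries and replicate 3 was among them. Its log2 fold change was 0.18 with an SE of 0.154 and an edgeR adjusted p of 0.391. Without iRGC replicate 3 it was 0.31, with an edgeR adjusted p of 0.0869, past the threshold.

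**Figure D1:**
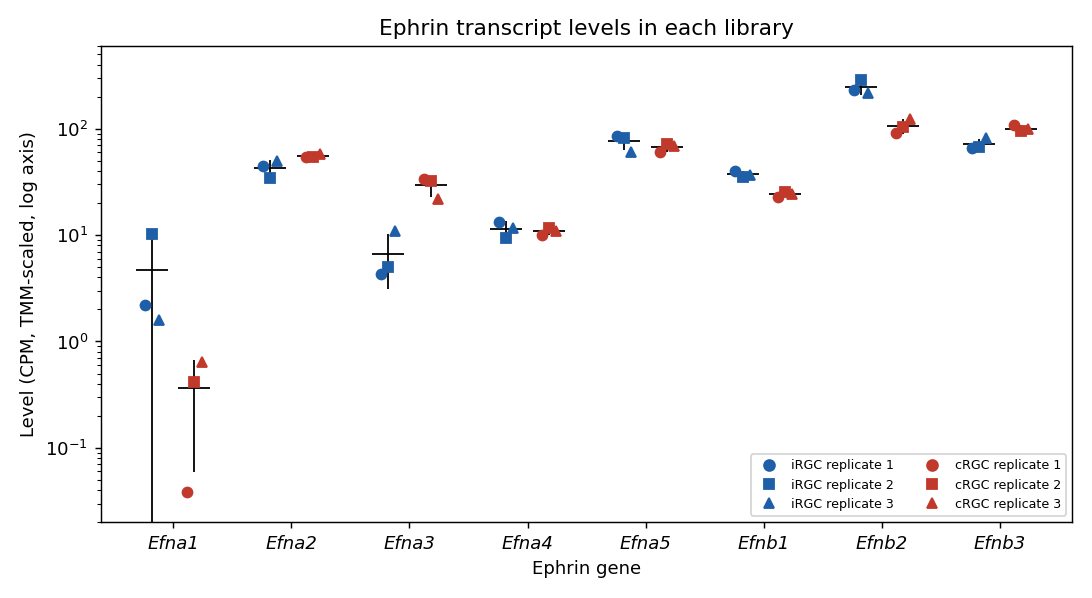
Transcript level of each ephrin gene in CPM (TMM-scaled, log axis), with 1 point per library, the black dash at the mean and the vertical line for 1 SD, n = 3 per population; the line for Efna1 in iRGCs runs off the axis because the SD exceeds the mean. Efnb2 in iRGCs (217 to 287 CPM) lies above all cRGC libraries, and Efna3 in iRGCs (4.31 to 10.8 CPM) lies below all of them.

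To set the 8 genes side by side, levels were divided by exonic length. In iRGCs, Efnb2 led with 35.9 ± 5.30 CPM per kilobase (SD, n = 3), followed by Efnb3 with 22.5 ± 2.75, Efna2 with 20.1 ± 3.70 and Efna5 with 18.9 ± 3.34. Efnb1 (10.8 ± 0.738), Efna4 (7.20 ± 1.23), Efna3 (2.76 ± 1.47) and Efna1 (2.55 ± 2.63) came after them. Libraries of the neighbours Efnb3 and Efna2, Efna2 and Efna5, and Efna3 and Efna1 overlapped in this order, so those ranks were not separated by their spread.

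In cRGCs, the order began with Efnb3 at 31.5 ± 2.16 CPM per kilobase, Efna2 at 25.9 ± 1.03, Efna5 at 16.6 ± 1.57 and Efnb2 at 15.6 ± 2.45. Efna3 (median 13.2, lowest library 8.90), Efnb1 (7.03 ± 0.374), Efna4 (6.80 ± 0.544) and Efna1 (0.200 ± 0.167) followed. The overlapping neighbours were Efna5 and Efnb2, Efnb2 and Efna3, and Efnb1 and Efna4. Efnb2 was thus first in iRGCs, whereas Efnb3, Efna2 and Efna5 had higher means in cRGCs, where Efnb2 was not separated from Efna5 or Efna3. This order depends on the length used, since per kilobase of the longest protein-coding transcript Efnb2 in cRGCs read 22.3 CPM and Efna5 16.6 CPM, with Efnb2 above.

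Summed over the family, the level was 121 ± 2.43 CPM per kilobase in iRGCs and 116 ± 1.34 in cRGCs. These sums depend on the length used, and in CPM without division by length the 8 ephrins summed to 497 ± 31.3 in iRGCs and 394 ± 13.9 in cRGCs. Class A ephrins summed to 51.5 ± 1.66 CPM per kilobase in iRGCs and 61.6 ± 2.20 in cRGCs, and class B ephrins to 69.1 ± 3.71 and 54.1 ± 1.84. As a share of the family, class A made up 42.7% ± 2.02 in iRGCs and 53.2% ± 1.63 in cRGCs. Efnb2 made up 29.7% ± 3.77 and 13.4% ± 2.00, Efnb3 18.7% ± 2.49 and 27.3% ± 2.19, and Efna3 2.29% ± 1.25 and 10.4% ± 2.44. These shares describe the same libraries and were given no test.

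**Figure D2:**
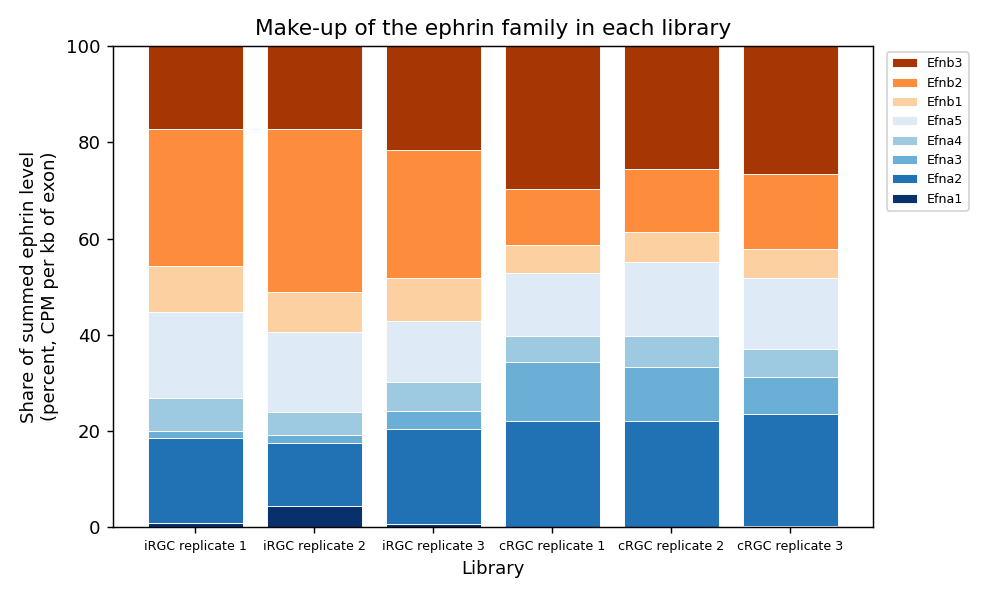
Make-up of the ephrin family in each of the 6 libraries, as percent of the summed level in CPM per kilobase of exon, with class A in blues and class B in oranges. Efnb2 takes 26.6% to 33.9% in iRGC libraries and 11.6% to 15.6% in cRGC libraries.

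Ratios of 2 ephrins within a library do not depend on how libraries are scaled. Efnb2 stood at 5.84, 8.21 and 5.90 times Efnb1 in iRGCs and at 3.96, 4.09 and 5.12 times in cRGCs. The ratio was higher in every iRGC library, by 0.59 on the log2 scale. Efna3 stood at 0.322, 0.528 and 0.930 times Efna4, its neighbour on chromosome 3, in iRGCs and at 3.40, 2.74 and 1.99 times in cRGCs. The difference was -2.29 on the log2 scale. For both ratios the exact permutation p, two-sided, was 0.1, the smallest that 3 libraries against 3 can give, and 0.15 after adjustment over the 3 ratios. Efna5 stood at 1.91, 2.41 and 1.22 times Efna2 in iRGCs and at 1.12, 1.33 and 1.20 times in cRGCs, with an exact permutation p, two-sided, of 0.2 (adjusted 0.2).

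Efna1, Efna3 and Efna4 lie next to each other on chromosome 3, within 66296 bases and on the same strand. The gap between Efna1 and Efna3 is 32756 bases and that between Efna3 and Efna4 is 10424 bases. Within this stretch Efna1 was higher in iRGCs, Efna3 lower and Efna4 not called, so the neighbours did not move together. The call of Efna1 was lost without iRGC replicate 2 (edgeR adjusted p 0.189).

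The receptors were read from the list of 14 Eph genes, of which Epha1 was too low to be tested. Of the 13 tested, 4 were higher in iRGCs, 4 were lower and 5 were not called, where 46.4% of all tested genes were called. Epha2, Epha3, Epha8 and Ephb4 were the higher ones. Epha2 read 64.3, 42.4 and 63.2 CPM in iRGCs and 5.73, 8.04 and 6.74 CPM in cRGCs, with a log2 fold change of 3.05 and an edgeR adjusted p of 0.000201. Epha3 had a log2 fold change of 2.27, Epha8 of 1.22 and Ephb4, a receptor of ephrin-B2 known from veins, of 2.88. The populations did not overlap for these 4, nor for 55.3% of all tested genes. Ephb4 read 29.0, 46.5 and 19.5 CPM in iRGCs and 1.46, 5.97 and 5.42 CPM in cRGCs, highest in iRGC replicate 2 like Efna1.

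Epha6, Ephb2, Ephb3 and Ephb6 were lower in iRGCs. Epha6 read 14.3, 21.2 and 26.5 CPM in iRGCs and 52.8, 45.1 and 75.2 CPM in cRGCs, and its log2 fold change was -1.48 with an edgeR adjusted p of 0.00208. Ephb3 had a log2 fold change of -0.71. Ephb2, the most abundant Eph transcript, had -0.24 (edgeR adjusted p 0.0865), and Ephb6 had -0.50 (edgeR adjusted p 0.0645). The last 2 calls were weak. Ephb2 was lost without each library other than iRGC replicate 3, at edgeR adjusted p values of up to 0.262, while its log2 fold change stayed at -0.27 to -0.18. Ephb6 was lost without iRGC replicate 2 or 3 or cRGC replicate 1 or 2, at edgeR adjusted p values of up to 0.201 and with a log2 fold change of -0.65 to -0.36 over all left-out libraries.

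Ephb1, the receptor of ephrin-B2 in iRGCs, read 57.3, 57.6 and 109.8 CPM in iRGCs and 69.3, 85.2 and 115 CPM in cRGCs. Its populations overlapped, and the log2 fold change of -0.26 (SE 0.278) was not called, with an edgeR adjusted p of 0.499. Without iRGC replicate 3, the library with the highest Slc6a4, it was -0.66 with an edgeR adjusted p of 0.0350. Epha4, Epha5, Epha7 and Epha10 were not called either, with log2 fold changes of -0.21 to 0.23.

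**Figure D3:**
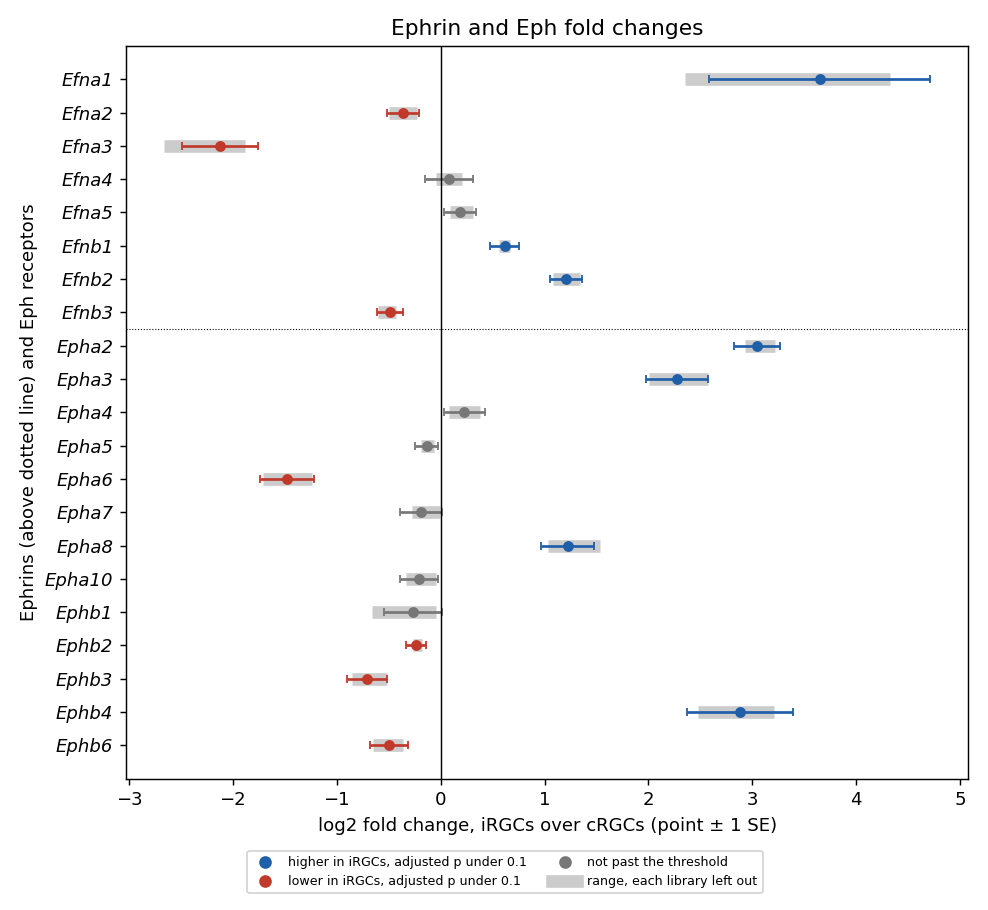
Log2 fold change of iRGCs over cRGCs for the 8 ephrins and 13 tested Eph receptors, with points at the edgeR estimate, whiskers of 1 SE and grey bars for the range when each library is left out in turn. The range of Efna1 (2.35 to 4.33) is the widest among the ephrins, and that of Efnb1 (0.56 to 0.67) the narrowest.

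Genes that act below the Ephs and ephrins were read from lists of their partners. Among 16 genes of forward signalling, 4 were higher in iRGCs and 8 lower. Inppl1, a lipid phosphatase that binds EphA2, had a log2 fold change of 2.14, and Sipa1l1, a GTPase-activating protein, of 1.18. Tiam1, an exchange factor for Rac, had 0.42, and its call was lost without iRGC replicate 1 or 3 or cRGC replicate 1 or 3, at edgeR adjusted p values of up to 0.246. Vav3 (-1.38), Arhgef15 (-1.25), both guanine nucleotide exchange factors, and Chn2 (-1.06), a Rac GTPase-activating protein, were the genes that fell most. Gm10602 and Phox2a share 20.3% of the exonic bases of Inppl1.

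Among 13 genes of reverse signalling, 6 were higher in iRGCs and 5 lower. Pdzrn3 (log2 fold change 2.60), Ptpn14 (2.34) and Ptpn13 (1.15) rose most. Grip1, an adaptor that binds the tails of class B ephrins, fell by 1.19 on the log2 scale, and Fyn, a Src family kinase recruited by ephrins, fell by 0.81. Grip2, another such adaptor, had -2.88 at 0.0322 to 1.80 CPM in iRGCs and 4.32 to 8.80 CPM in cRGCs, and its call was lost without cRGC replicate 1 (edgeR adjusted p 0.100) or 2 (0.102). Without iRGC replicate 3 it had -3.68 and kept its call. Of 5 genes of shedding, which cut ephrins or Ephs from the surface, 3 could be tested. Adam17 was higher (1.46), and Adam10, the protease known to cut ephrin-A2, and Mmp2 were lower (-1.08 and -1.24). Calls in both directions were also common over all tested genes, of which 23.3% were higher and 23.1% lower, so these counts are a description of the lists.

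Since the VT region was removed from one population only, and ephrins are known to be graded across the retina, regional genes were read beside them. Of 5 dorsal genes, Tbx2 (log2 fold change 0.71), Tbx3 (1.75) and Aldh1a1 (3.68) were higher in iRGCs, Tbx5 was lower (-1.60) and Bmp4 was not called. Aldh1a1, which read 147, 532 and 103 CPM in iRGCs, had 2.62 without iRGC replicate 2 and kept its call. Tbx5 was lost without iRGC replicate 1 or 3 or cRGC replicate 3, and without the last it was -0.50 (edgeR adjusted p 0.452). Of 5 ventral genes, Aldh1a3 (2.79), Bmpr1b (2.39) and Chrdl1 (0.87) were higher, Vax2 was lower (-1.07) and Vax1 was not called. Foxd1, a temporal gene, was higher (1.84), Foxd2 was not tested, and Hmx1, a nasal gene, was not called. Vax1 and Hmx1 passed the threshold without iRGC replicate 1 (log2 fold changes 1.40 and 0.27, edgeR adjusted p 0.0904 and 0.0862), and Bmp4 without cRGC replicate 1 (edgeR adjusted p 0.0257). Genes of opposite regions were thus higher together. Of all tested genes, 46.4% were called and 23.3% were higher, so these counts describe the lists and not a retinal region. The part of retinal position in the ephrin differences was not tested.

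The called ephrins with the largest differences were read beside the marker levels of each library. Efna3 was lowest in iRGC replicates 1 and 2, in which the mean of the RGC markers was lowest as well (143 and 176). Efnb2 was at 217 CPM or higher in the 3 libraries whose progenitor mean was 267 to 320 and at 124 CPM or lower in those with 49.5 to 102. Within cRGCs, Efnb2 was highest in replicate 3 and the progenitor mean in replicate 2. Efna3 and the RGC markers were both lower in iRGCs, and Efnb2 and the progenitor markers both higher. Matches between the populations thus repeat that difference and link no ephrin to a cell type. Efna1 was highest in iRGC replicate 2, which had the highest endothelial mean of 25.1, against 5.19 and 1.45 in the other iRGC libraries and 0.990 to 1.13 in cRGCs. Directions are relative to the TMM scaling. Division by a marker mean shifts all ephrins of a library alike, and since the marker means differ between the populations it turns directions by construction. Relative to the RGC markers, Efna2 (1.54 on the log2 scale) and Efnb3 (1.43) were on the higher side in iRGCs and Efna3 (-0.21) overlapped. Relative to the progenitor markers, Efnb2 (-0.85) and Efnb1 (-1.45) were on the lower side and Efna1 (0.19) overlapped. These values say nothing about single ephrins, and the part of cell make-up in the ephrin differences was not tested.

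**Figure D4:**
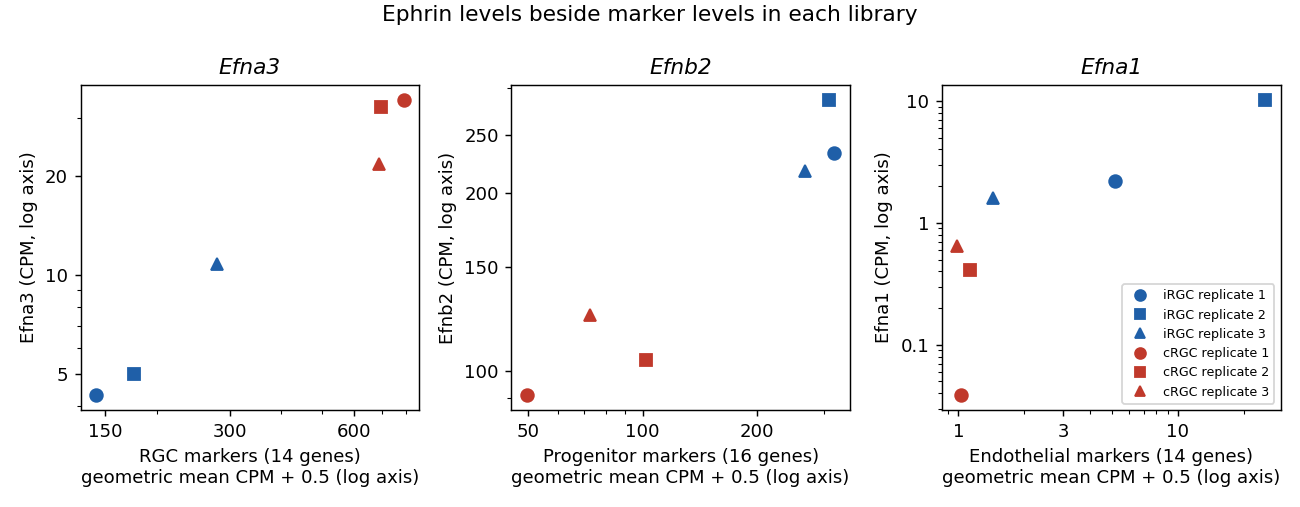
Level of Efna3, Efnb2 and Efna1 (CPM, log axis) against the geometric mean of RGC, progenitor and endothelial markers (CPM plus 0.5, log axis), with 1 point per library. In iRGC libraries, Efna3 and the RGC markers (143 to 279) are low, and Efnb2 and the progenitor markers (267 to 320) are high. Each ephrin and the list beside it differ between the populations in the same direction, so the panels largely repeat that difference. Efna1 is highest in iRGC replicate 2, which has the highest endothelial mean of 25.1.

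The remaining marker lists were read beside the ephrins. Of all tested genes, 46.4% were called and 23.3% were higher, so these counts describe the lists. All 8 markers of neurogenic precursors (most abundant Hes6), the 6 tested of 7 of photoreceptor precursors (Otx2) and 6 of 7 of amacrine cells (Tfap2b) were higher in iRGCs. Of 5 horizontal cell markers (Onecut2), 1 was higher. Mural markers (Notch3) were higher for 5 of 7 tested, microglial markers (Csf1r) for 4 of 8 and erythroid markers (Hbb-bs) for 4 of 5, and the erythroid sum was highest in iRGC replicate 2 at 94.7 CPM. Of markers of mesenchyme (Col1a2), 2 of 4 tested were higher. For microglia and mesenchyme the share called was 50%, near that of all tested genes. Hbb-bs and Csf1r passed the filter on low counts mainly through iRGC libraries, which favours calls as higher. None of 4 tested markers of pigment epithelium (Mitf) or of 3 of lens (Bfsp1) was called, and the 1 tested marker of optic stalk astrocytes, Aldh1l1, was lower.

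The genes whose pattern was most like that of Efna1 and Efna3 were sought among 11215 protein-coding genes with a mean of at least 5 CPM, by the Euclidean distance of log2 CPM centred on each gene's mean over the 6 libraries. For Efna1 these were Adamts9 (distance 0.675), Unc5b (0.687) and Zfp36 (0.845). Adamts9 read 4.70, 24.2 and 3.66 CPM in iRGCs and 0.231, 1.76 and 1.61 CPM in cRGCs, with the peak in iRGC replicate 2 that Efna1 also had. For Efna3 they were Pirt (0.213), Fgf12 (0.245) and Rgs7 (0.254). Pirt read 8.81, 11.3 and 22.6 CPM in iRGCs and 67.9, 63.1 and 50.3 CPM in cRGCs, with replicate 3 of each population nearest the other, as for Efna3.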

How the data were processed

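The RNA-seq libraries of sorted cells, 3 of iRGCs and 3 of cRGCs, were analysed, and the 13 ATAC-seq samples were not analysed here. Per the paper's methods and the submitters' processing notes, the authors aligned reads to mm10 (GRCm38) with HISAT2 2.1.0 and counted unique alignments with HTSeq 0.11.1, and deposited raw counts per gene, 1 table per library. Of 47069 genes, 46574 matched GENCODE M21. Reads on no gene were 12.3% to 23.2% of unique alignments and stayed out of library sizes.

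Counts were fitted in R 4.3.3 with edgeR 4.0.16 (filterByExpr, TMM, quasi-likelihood test, no block, Benjamini-Hochberg over all 15941 tested genes). Genes were called at an adjusted p under 0.1. SEs were the absolute log2 fold change over the root of the F statistic. The biological coefficient of variation was 36.3%, which limits what 3 libraries per population can show. Marker means used CPM plus 0.5. Promoters and their background came from RefSeq (GRCm38.p6), and the matches were searched on both strands. Fits were tested on simulated data. The sequences printed and the lists of genes were chosen with earlier results of these data known, as were the members.

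All ephrins, all tested Eph receptors and both driver genes were named, with up to 3 genes per direction from the other partner and region lists, the most abundant gene of each marker list, and the 3 genes nearest to the ephrins that rose and fell most. Further marker genes were named after their values were seen. A gene of the region lists is not reported here. Alternatives were other size factors, DESeq2 1.42.0, limma 3.58.1 voom, other filters, each library left out, the replicate block, protein-coding genes alone, other thresholds, other gene lengths and library totals.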

Additional observations from a re-analysis of the deposited data

How the results depend on the processing

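Counts of calls kept within 1.5 times of those given, other than with an absolute log2 fold change above 1 asked for as well, which by construction left 3 ephrins, 5 Eph receptors, 14 partner genes and 3688 of all genes. Efna1 had a log2 fold change of 3.65 with limma voom (adjusted p 0.120) and was not tested with at least 10 counts in every library. Efna2 had -0.37 without a filter on low counts (edgeR adjusted p 0.118). With each library left out, the log2 fold change was 2.35 to 4.33 for Efna1, -0.50 to -0.23 for Efna2, -0.042 to 0.20 for Efna4, 0.093 to 0.31 for Efna5 and -1.11 to 0.98 for Slc6a4, and 4 to 7 ephrins were called. Slc6a4 changed sign with limma voom (-0.86) and with the replicate block (-0.54). The causes were not tested.

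Per kilobase of the longest protein-coding transcript, Efnb2 read 51.3 CPM in iRGCs and 22.3 in cRGCs and Efnb1 7.45 in cRGCs. With CPM of the library total, Efna2 read 24.1, Efnb1 6.55 and Efnb3 29.3 per kilobase in cRGCs and Efnb1 11.6 in iRGCs. Replicate numbers did not pair the libraries (correlations of same-numbered deviations -0.014, -0.045 and -0.067). With the number as a block, 6751 genes were called in place of 7395, and 6 ephrins. Depth limits Efna1 most, with 1 count in cRGC replicate 1.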
